A study of Mus musculus with 6 samples.

Results

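G protein-coupled receptors that T cells use to find or leave tissues were examined in regulatory T cells (Tregs) sorted by a GPR15-GFP reporter. GPR15 is a homing receptor of the large intestine. The set held 7 genes, chosen by name: Gpr15, Gpr183, Gpr55, Gpr18, S1pr1, S1pr4 and Ptgdr2. All 7 were measured, each by 1 row of the array's value table, among 19494 genes in all. Expression was measured on 6 single-colour Affymetrix arrays of CD4-stained, RFP+ cells from the colonic lamina propria of mice with tumours, sorted into 3 GPR15-GFP+ and 3 GPR15-GFP- samples. Both fractions came from Foxp3-RFP x GPR15-GFP mice in which azoxymethane, which damages DNA, and dextran sulfate sodium, which injures the gut lining, had induced tumours, so every sample carried both reporters and had the same treatment. Not stated in the labels were age, sex, the design of the GFP allele, the number of copies each mouse carried, and whether a sample was 1 animal or a pool. Samples of both fractions were numbered 1, 5 and 6, and from 2 to 10 ng of RNA was labelled.

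These receptors couple to G proteins and steer a cell along, or away from, a gradient of a lipid or a peptide. GPR15 binds a peptide made by epithelium and brings T cells, Tregs among them, to the colon. GPR183 follows oxysterols within lymphoid tissue, S1P receptors draw lymphocytes out of tissue into lymph and blood, and PTGDR2, also called CRTH2, answers prostaglandin D and is known from type-2 helper T cells, innate lymphoid cells and eosinophils. In T cells the GPR15 gene is known as a target of TGF-β signalling and of the aryl hydrocarbon receptor AHR.

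The labelled cell type was checked against marker genes. Ptprc, Cd4, Cd3e and Ctla4 were among the brightest genes, the lowest of them, Cd4, at the 93.3 percentile of mean level over all genes, whereas Il2ra, which encodes the Treg surface marker CD25, lay at the 20.0 percentile (4.64 to 5.42 log2 units on the 6 arrays). Other genes of the T cell and Treg list were bright: Icos, Tnfrsf4, Tnfrsf18 and Ikzf2 lay at the 99.7, 99.97, 99.3 and 94.9 percentiles. The arrays numbered 1 had a narrower spread of values than the other 4 (SD 1.63 in both fractions against 1.74 to 1.87), and results are given by number for that reason. Markers of several other cell types, though not of all, tended to lie lower in GPR15-GFP+ samples: 0 of 9 macrophage, monocyte and dendritic cell genes, 1 of 8 B and plasma cell genes, 2 of 13 epithelial genes and 1 of 9 fibroblast and endothelial genes lay above 0, against 40.8% of all genes. In that order, only 3 of 9, 1 of 8, 6 of 13 and 3 of 9 of them were brighter than the median gene. The share of all genes was not matched for level, and GPR15-GFP+ arrays 5 and 6 had the lowest medians (6.49 and 6.51) and the widest spread. Each array's mean over the 13 epithelial genes was 6.17 to 6.60 log2 units in GPR15-GFP+ and 6.50 to 6.67 in GPR15-GFP- samples, and over the 9 macrophage and dendritic cell genes it was 5.96 to 6.44 against 6.38 to 6.45. For 8 B and plasma cell genes it was 5.59 to 5.86 against 5.92 to 6.21, and for 9 fibroblast and endothelial genes 5.92 to 6.12 against 6.04 to 6.20. Of the CD8 T, intraepithelial and NK cell genes 3 of 9 lay above 0, with means of 6.70 to 6.86 against 6.92 to 7.03. Genes of type-2 innate lymphoid cells, mast cells and eosinophils lay above 0 in 5 of 10, with means of 5.81 to 5.99 against 5.95 to 6.06. T cell and Treg genes lay above 0 in 6 of 11, with means of 10.42 to 10.75 against 10.42 to 10.78. Within that list Ikzf2 lay lower without overlap between the fractions, as 9.17% of all genes did, at -0.52 ± 0.19 (SE) (limma adjusted p = 0.773). Ctla4 differed by 0.38 and lay higher in each pair of equal number. RMA values have no true zero, and the part of these other cells in the results below was not tested.

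The comparison asked whether Tregs of the tumorous colonic lamina propria sorted as GPR15-GFP+ differ in these receptors from those sorted as GPR15-GFP-, with the fractions named by their labels. None of the 7 genes passed limma's test after Benjamini-Hochberg adjustment over all genes, as was the case for all 19494 genes tested (0 called, or 0% of them). Gpr15 itself lay lower in the GPR15-GFP+ samples, the reverse of the sort's label. S1pr1 and Gpr18 lay higher in each pair of equal number without passing the test, and Gpr183, Gpr55, S1pr4 and Ptgdr2 had pairs on both sides of 0. At an unadjusted limma p under 0.05 there was 1 of the 7 genes, Gpr15, where 6.23% of all genes were below that mark (1214 genes: 544 higher, or 2.79%, and 670 lower, or 3.44%; 777 and 397 once array medians were made equal). With the replicate number as a block there were 2 of 7, Gpr15 and S1pr1, where 12.4% of all genes were below it. Direction is GPR15-GFP+ minus GPR15-GFP- throughout, in log2 units, and in RNA from many cells fewer cells of a type and less RNA per cell cannot be told apart.

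**Figure D1:**
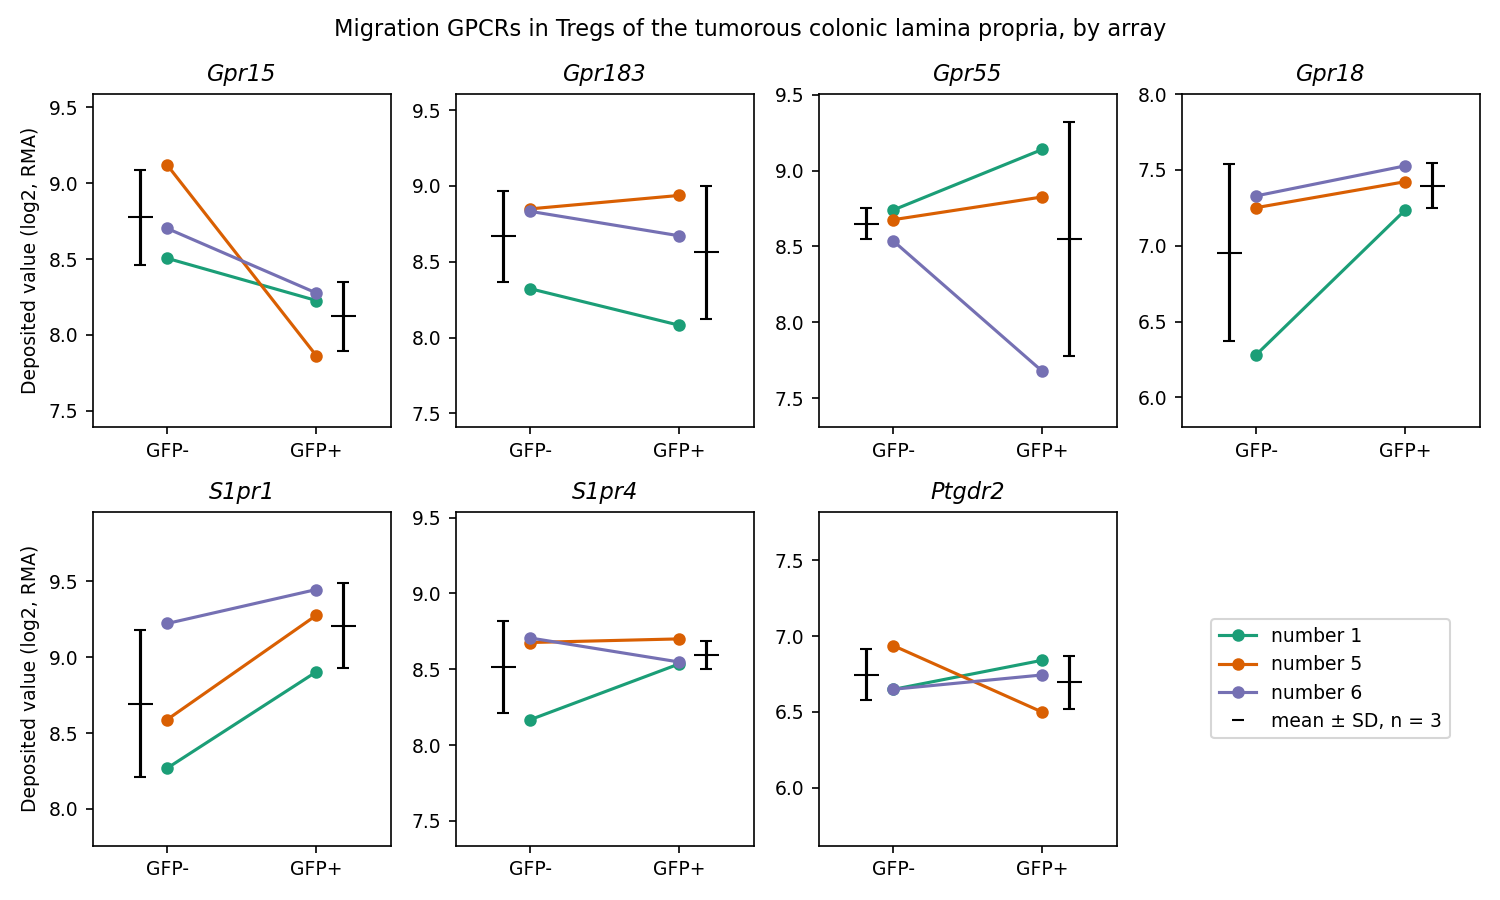
Deposited log2 values (vertical axes, of equal span) of the 7 receptors in GPR15-GFP- and GPR15-GFP+ samples, with lines joining samples of equal number and black marks for the mean ± SD of 3 arrays. The GPR15-GFP+ end is the lower one of all 3 lines for Gpr15 and the higher one of all 3 for S1pr1 and Gpr18, and the other 4 genes have lines in both directions.

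Gpr15, the gene of the sorted reporter, gave 8.51, 9.12 and 8.70 log2 units in GPR15-GFP- samples 1, 5 and 6, and 8.23, 7.86 and 8.28 in GPR15-GFP+ samples 1, 5 and 6. The fractions did not overlap: the highest GPR15-GFP+ sample lay below the lowest GPR15-GFP- sample. Over all genes, 13.3% did not overlap, 9.17% with the GPR15-GFP+ samples below and 4.12% with them above. The means were 8.12 ± 0.23 (SD, n = 3) and 8.78 ± 0.31 (SD, n = 3), a difference of -0.65 ± 0.22 (SE) with a 95% interval from -1.16 to -0.15, or 1.57-fold lower (limma adjusted p = 0.773; unadjusted p = 0.0172). Pair 5 had the largest gap, at -1.26, against -0.28 in pair 1 and -0.43 in pair 6. The estimate was -0.48 without GPR15-GFP- replicate 5 and -0.52 without GPR15-GFP+ replicate 5, and it lay below 0 in each of 14 other settings tried. With array weights, estimated from the 6 arrays, it was -0.59 and passed (limma adjusted p = 0.0461), as did 2174 genes in all. The estimation of those weights stopped before it converged. It gave 6.56 to GPR15-GFP+ replicate 6 against 0.191 to 1.72 for the other arrays, so this pass carries little weight. Which part of the transcript this row's probes read, and whether the reporter allele keeps it, are not known here, and the row is no check of the sort.

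Against the other 6 receptors, Gpr15 stood at the low end in each pair. In pairs 1 and 5 its difference lay below those of all 6, and in pair 6 below those of 5, Gpr55 being lower. The median of the other 6 was 0.38 in pair 1, 0.12 in pair 5 and -0.03 in pair 6, with 5, 5 and 3 of them above 0. Over the 3 pairs together that median was 0.01, against -0.06 for all genes. These figures describe the set and carry no test, since it was drawn up with earlier results of these data known.

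**Figure D2:**
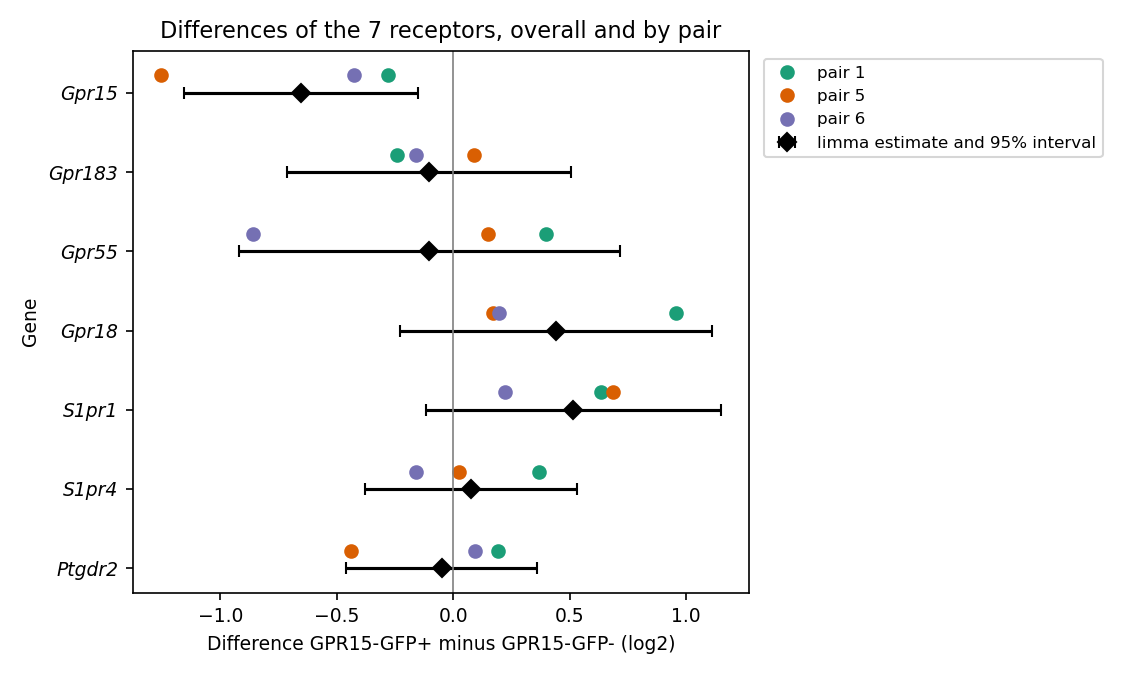
Difference between GPR15-GFP+ and GPR15-GFP- samples (log2, horizontal axis) for each receptor: black diamonds and bars are limma's estimate and 95% interval, and coloured points the 3 pairs of equal number. In this fit without the replicate block, the interval leaves out 0 for Gpr15 alone, without adjustment for the number of genes tested. With the block, S1pr1 also had an unadjusted limma p under 0.05 (0.0174).

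The gene next to Gpr15 lay lower in GPR15-GFP+ samples as well. In the RefSeq annotation of GRCm38.p6, Gpr15 spans bases 58716643 to 58718872 of chromosome 16, and Cldnd1, a gene of the claudin domain family, begins 9038 bases beyond its end, at 58727910 to 58734247. Cldnd1 gave 11.70, 11.87 and 11.94 log2 units in GPR15-GFP- samples 1, 5 and 6, and 11.11, 11.13 and 10.88 in GPR15-GFP+ samples 1, 5 and 6. Its fractions did not overlap and its difference was -0.79 ± 0.16 (SE), at -0.58, -0.74 and -1.05 in the 3 pairs (limma adjusted p = 0.773). It was known from earlier results before the neighbours were listed.

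Of the 5 measured genes on either side of Gpr15, 8 of 10 lay below 0, as 59.2% of all genes did, and 4 were below 0 in all 3 pairs, as 23.6% of all genes were. The fractions did not overlap for 3 of the 10, with GPR15-GFP+ samples below, as was so for 9.17% of all genes: Cldnd1, Ftdc1 at -0.44 and the odorant receptor Olfr175 at -0.82 ± 0.20 (SE). Cldnd1, known beforehand, is part of each of these counts, so they carry no test. Ftdc1 was a dim row, at the 9.6 percentile of mean level over all genes. Olfr175 lay 104909 bases from Gpr15, with Olfr172 (-0.26) and Olfr173 (-0.21) in between, and none of them passed over all genes. The haem synthesis enzyme Cpox, the nearest gene on the other side, differed by -0.03. St3gal6 (-0.16), Olfr177 (-0.13), Dcbld2 (0.24) and Ftdc2 (0.21) made up the rest. Odorant receptors and the Ftdc genes belong to families of similar genes, whose rows may share signal.

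**Figure D3:**
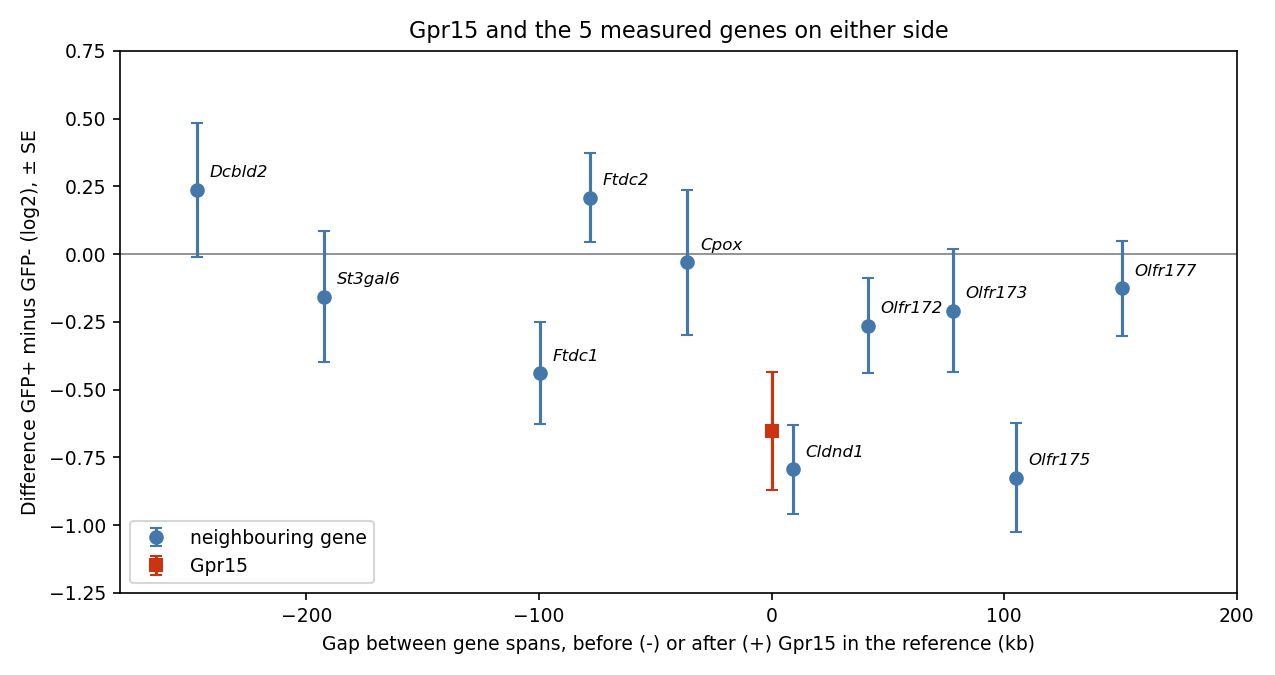
Difference between GPR15-GFP+ and GPR15-GFP- samples (log2, vertical axis, bars ± SE) for Gpr15 (red) and its 10 measured neighbours (blue), by the gap between gene spans in kb. Cldnd1 and Olfr175 lie at -0.79 and -0.82, below Gpr15 at -0.65, and the other 8 lie between -0.44 and 0.24.

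The 250 bases before the start of Gpr15 and of Cldnd1 are shown because these neighbours differed in the same direction; capitals mark CG pairs, the sites of DNA methylation. They are from RefSeq, GRCm38.p6, at chr16:58718873-58719122 on the minus strand for Gpr15 and chr16:58727660-58727909 on the plus strand for Cldnd1, both read in the direction of the gene.
Gpr15: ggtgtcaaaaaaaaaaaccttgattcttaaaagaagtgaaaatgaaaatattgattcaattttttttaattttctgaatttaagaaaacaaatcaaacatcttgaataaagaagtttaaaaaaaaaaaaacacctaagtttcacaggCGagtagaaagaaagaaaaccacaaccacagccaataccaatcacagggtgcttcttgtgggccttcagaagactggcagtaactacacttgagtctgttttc
Cldnd1: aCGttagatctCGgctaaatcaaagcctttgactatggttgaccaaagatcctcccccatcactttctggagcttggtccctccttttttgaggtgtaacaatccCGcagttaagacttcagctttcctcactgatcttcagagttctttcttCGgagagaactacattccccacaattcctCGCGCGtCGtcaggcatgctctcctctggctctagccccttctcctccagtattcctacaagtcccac
The Gpr15 stretch held 1 CG pair and 31.6% G and C, lower than in all but 2.2% of 32851 RefSeq promoters. That of Cldnd1 held 8 CG pairs and 49.2% G and C, near the medians of 6 pairs and 52.4% over all promoters. The core letters bound by AHR, GCGTG, were in neither stretch on either strand, and were in 28.2% of all promoters. Among the 6 receptors other than S1pr1 they occurred in Gpr18 alone, at 1 match. A match is a description of letters and no measure of binding.

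S1pr1 encodes the receptor that lets lymphocytes leave tissue along the gradient of the lipid S1P. It gave 8.27, 8.59 and 9.22 log2 units in GPR15-GFP- samples 1, 5 and 6, and 8.90, 9.28 and 9.45 in GPR15-GFP+ samples 1, 5 and 6. The fractions overlapped, since GPR15-GFP- sample 6 lay above GPR15-GFP+ sample 1, but each GPR15-GFP+ sample lay above its partner, by 0.63, 0.69 and 0.22. All 3 pairs were above 0 in 13.4% of all genes. The means were 9.21 ± 0.28 (SD, n = 3) and 8.69 ± 0.49 (SD, n = 3). Without the replicate block the difference was 0.52 ± 0.27 (SE), with a 95% interval from -0.12 to 1.15 (limma adjusted p = 0.773). With the block its SE was 0.17 (limma unadjusted p = 0.0174, adjusted p = 0.362). The difference was 0.30 without GPR15-GFP- replicate 1 and 0.78 without GPR15-GFP- replicate 6.

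S1pr4, a second S1P receptor, found mainly on blood cells, gave 8.17, 8.68 and 8.71 log2 units in GPR15-GFP- samples 1, 5 and 6, and 8.54, 8.70 and 8.55 in GPR15-GFP+ samples 1, 5 and 6. GPR15-GFP- sample 1 was low and the other 5 samples lay close together. The difference of 0.08 ± 0.20 (SE) had a 95% interval from -0.38 to 0.53 (limma adjusted p = 0.938), and it was -0.10 without GPR15-GFP- replicate 1. Its sign also turned with quantile normalization and with the intensity trend removed. Of the remaining S1P receptors, S1pr2 differed by 0.02, S1pr3 by -0.21 and S1pr5 by -0.27.

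Gpr18, a receptor known for its part in placing T cells in the gut epithelium, gave 6.28, 7.25 and 7.33 log2 units in GPR15-GFP- samples 1, 5 and 6, and 7.24, 7.42 and 7.53 in GPR15-GFP+ samples 1, 5 and 6. Each GPR15-GFP+ sample lay above its partner, by 0.95 in pair 1 and by 0.17 and 0.20 in pairs 5 and 6. The difference was 0.44 ± 0.29 (SE), with a 95% interval from -0.23 to 1.11 (limma adjusted p = 0.779). GPR15-GFP- sample 1 was by far the lowest of the 6, and without it the difference was 0.11.

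Gpr183, the oxysterol receptor, gave 8.32, 8.85 and 8.83 log2 units in GPR15-GFP- samples 1, 5 and 6, and 8.08, 8.94 and 8.67 in GPR15-GFP+ samples 1, 5 and 6. Both samples numbered 1 were low, whatever their fraction. The difference was -0.10 ± 0.26 (SE), with a 95% interval from -0.72 to 0.51 (limma adjusted p = 0.938), and it was 0.14 without GPR15-GFP+ replicate 1. Gpr183 and Gpr18 are neighbours, at 121952331 to 121965193 and 121911434 to 121915888 of chromosome 14, and both lie within the span of Ubac2 (121878559 to 122021035). Ubac2 itself, a protein of the endoplasmic reticulum, lay higher in GPR15-GFP+ samples by 0.31, 0.55 and 0.74 in the 3 pairs, with no overlap (limma adjusted p = 0.773).

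Gpr55, a receptor for lysophosphatidylinositol, gave 8.74, 8.68 and 8.54 log2 units in GPR15-GFP- samples 1, 5 and 6, and 9.14, 8.83 and 7.68 in GPR15-GFP+ samples 1, 5 and 6. The GPR15-GFP+ samples held both the highest and the lowest value, with an SD of 0.77 against 0.10 in GPR15-GFP- samples. The difference was -0.10 ± 0.35 (SE), with a 95% interval from -0.92 to 0.72 (limma adjusted p = 0.955), and it was 0.33 without GPR15-GFP+ replicate 6. With array weights, which are highest for that array, it was -0.80 (limma adjusted p = 0.0747). In pair 6 it was -0.86, against 0.40 and 0.15 in pairs 1 and 5.

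Ptgdr2, the prostaglandin D receptor, was the dimmest row of the set, at the 52.5 percentile of mean level over all genes, and brightness depends on probes as well as on RNA. It gave 6.65, 6.94 and 6.65 log2 units in GPR15-GFP- samples 1, 5 and 6, and 6.84, 6.50 and 6.74 in GPR15-GFP+ samples 1, 5 and 6. The 6 values spanned little and overlapped. The difference was -0.05 ± 0.18 (SE), with a 95% interval from -0.46 to 0.36 (limma adjusted p = 0.955). Its sign turned when arrays were centred, quantile-normalized or freed of the intensity trend, and without either array numbered 5 (0.05 in both cases). Of 10 measured genes of type-2 innate lymphoid cells, mast cells and eosinophils, which are known to carry this receptor, 5 lay above 0, and 1 was brighter than the median gene: Kit, at -1.19 ± 0.68 (SE) without the block and ± 0.15 with it. The pairs gave -1.12, -1.30 and -1.16, and Kit did not pass (limma adjusted p = 0.773; adjusted p = 0.176 with the replicate block). Kit lay at the 97.5 percentile of mean level, and the next brightest of the list, Siglecf, at the 34.6 percentile. The dimmer genes did not share Kit's direction. Ccr3 (0.34, without overlap), Cpa3 (0.32) and Mcpt2 (0.30) were higher. Fcer1a (-0.52, without overlap), Mcpt1 (-0.18) and Ms4a2 (-0.16) were lower, and Prg2, Epx and Siglecf differed by 0.01, -0.05 and 0.02. The means over the 10 genes were 5.81 to 5.99 log2 units in GPR15-GFP+ and 5.95 to 6.06 in GPR15-GFP- samples. The prostaglandin D synthase Hpgds differed by 0.36 and the second prostaglandin D receptor, Ptgdr, by -0.06.

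The remaining neighbours were described in the same way, and none passed over all genes. S1pr1 spans bases 115710433 to 115715055 of chromosome 3, between Olfm3 (0.20) and A930005H10Rik (-0.12). S1pr4 spans 81497745 to 81500137 of chromosome 10, between Ncln (0.46) and the G protein subunit gene Gna15 (0.18). Gpr55 spans 85933221 to 85991583 of chromosome 1, between 4933407L21Rik (-0.54) and Spata3 (-0.31). Both of these neighbours were lower without overlap between the fractions, as 9.17% of all genes were. Ptgdr2 spans 10924519 to 10942511 of chromosome 19, between Zp1 (-0.18) and Ccdc86 (0.21), whose span overlaps its end. Beyond Gpr183, Timm8a2 differed by -0.29.

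Likeness between profiles was measured as the root mean square difference of values centred on each gene's mean over the 6 arrays. Among the 21 pairs of receptors, Gpr18 and S1pr1 were most alike, at 0.22 log2 units, where each had an SD of 0.45 over the arrays. The measure also depends on spread, so that profiles that vary little, as those of S1pr4 (SD 0.20) and Ptgdr2 (SD 0.16), lie close to others whatever their shape. Gpr55 and S1pr1 were least alike, at 0.75, and Gpr15 with S1pr1 stood at 0.70. Of 9747 genes above the median level, those nearest to Gpr15 were Taf6l (0.07), Lhfpl2 and Septin8 (both 0.10), Ankrd13d (0.11) and Paf1 (0.12), where Gpr15 itself had an SD of 0.43. With 6 arrays and so many candidates, close matches carry no weight as evidence of a link. Those nearest to S1pr1 were Smurf1 (0.09) and Srprb (0.10), to Gpr18 Ddx21 and Wwp2 (both 0.09), and to Gpr183 Smap2 (0.04) and Akna (0.06). Xlr3a and Uggt1 (both 0.16) were nearest to Gpr55, Anxa11 (0.04) and G3bp2 (0.05) to S1pr4, and Zfp395 and Dtd2 (both 0.05) to Ptgdr2.

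Genes around the receptors were counted from 5 lists, in none of which a member passed over all genes in either direction. Over all genes 40.8% lay above 0, a share not matched for level. In the order of the lists below, 8 of 15, 9 of 16, 21 of 23, 8 of 9 and 11 of 11 members were brighter than the median gene. Fractions did not overlap in 9.17% of all genes with GPR15-GFP+ samples below, and in 4.12% with them above. The list of ligand supply, the enzymes and transporters that make, break down or release the ligands, had 6 of 15 measured members above 0 and a median of -0.09, against -0.06 for all genes. That median was -0.31 with array weights, -0.23 without both arrays numbered 1, -0.20 with the dimmest genes left out and 0.016 with the intensity trend removed. It was -0.027 without GPR15-GFP- replicate 5 and -0.029 without GPR15-GFP+ replicate 6. The gene of the GPR15 ligand, listed under its older symbol 2610528A11Rik, gave 7.21, 7.12 and 7.002 log2 units in GPR15-GFP- samples 1, 5 and 6, and 6.58, 6.77 and 6.68 in GPR15-GFP+ samples 1, 5 and 6. Its fractions did not overlap, and its difference was -0.44 ± 0.16 (SE) (limma adjusted p = 0.773). The ligand is known as an epithelial product, and the epithelial list lay lower as well, with a median of -0.24 over 13 genes; the part of epithelial RNA in this value was not tested. In the S1P pathway, the phosphatase Sgpp1 lay higher without overlap, at 0.77 ± 0.28 (SE), and the S1P exporter Spns2 differed by -0.45. The oxysterol enzymes Ch25h, Cyp7b1, Hsd3b7 and Cyp27a1 differed by -0.30, -0.12, -0.30 and 0.0012, and Cyp7b1 and Cyp27a1 had pairs on both sides of 0.

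Of 16 other lymphocyte receptors of this class, 10 lay above 0, with a median of 0.14, at -0.04, 0.29 and 0.13 in the pairs 1, 5 and 6, and from -0.02 without GPR15-GFP- replicate 1 to 0.42 without GPR15-GFP+ replicate 1. Gpr174, a lysophosphatidylserine receptor, had the largest difference, at 1.13 ± 0.49 (SE), with pairs at 0.19, 2.46 and 0.72. The related P2ry10 differed by 0.90 ± 0.59 (SE) and lay higher in each pair, by 1.24, 0.90 and 0.56. With the replicate block the SE was 0.39 for Gpr174 (limma unadjusted p = 0.0218, adjusted p = 0.370). For P2ry10 it was 0.18 (limma unadjusted p = 0.0015, adjusted p = 0.245). With the block 12.4% of all genes had an unadjusted limma p under 0.05. Cysltr1, a leukotriene receptor, differed by 0.38 and Gpr34 by 0.36, and both lay below 0 in pair 1.

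The list of G protein signalling had 15 of 23 members above 0 and a median of 0.11, which was -0.03 without GPR15-GFP- replicate 1. That median also moved with the processing, to 0.04 with quantile normalization, 0.07 with the intensity trend removed and 0.18 with arrays centred. The G protein subunit Gnaq lay lower by nearly the same amount in every pair, at -0.60, -0.52 and -0.59, and its fractions did not overlap (limma adjusted p = 0.773). Rgs2 (-0.27) was also lower without overlap, and Gnas (0.42), Rgs3 (0.23) and Rac2 (0.11) were higher without overlap. Arhgef1, a guanine nucleotide exchange factor, differed by 0.63 ± 0.26 (SE), the receptor kinase Grk6 by 0.54 ± 0.21 (SE) and the subunit Gnas by 0.42. Gnai2, the inhibitory subunit through which chemoattractant receptors signal, differed by -0.11.

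The list of egress and S1pr1 control had 6 of 9 members above 0 and a median of 0.01. The median was 0.16 without GPR15-GFP+ replicate 6, 0.09 without GPR15-GFP+ replicate 1 and -0.02 without GPR15-GFP+ replicate 5. It was 0.08 with arrays centred or with the intensity trend removed. Klf2, the factor that drives S1pr1 transcription, differed by 0.19 and lay higher in each pair, by 0.03, 0.46 and 0.09. Cd69, which removes the S1pr1 protein from the surface, differed by -0.14, Foxo1 by 0.15, Ccr7 by -0.16 and Prdm1 by 0.30. The list of Gpr15 control in T cells had 7 of 11 members above 0 and a median of 0.07, which was -0.01 with quantile normalization and went from -0.06 without GPR15-GFP+ replicate 5 to 0.10 without GPR15-GFP- replicate 5. Within it the nuclear receptor Rora lay lower without overlap, at -0.43 ± 0.16 (SE), and the TGF-β inhibitor Smad7 differed by 0.37. Ahr and its repressor Ahrr, itself a target of AHR, differed by -0.18 and -0.30 and Smad2 by 0.28. Tgfbr2 lay higher without overlap, at 0.24.

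**Figure D4:**
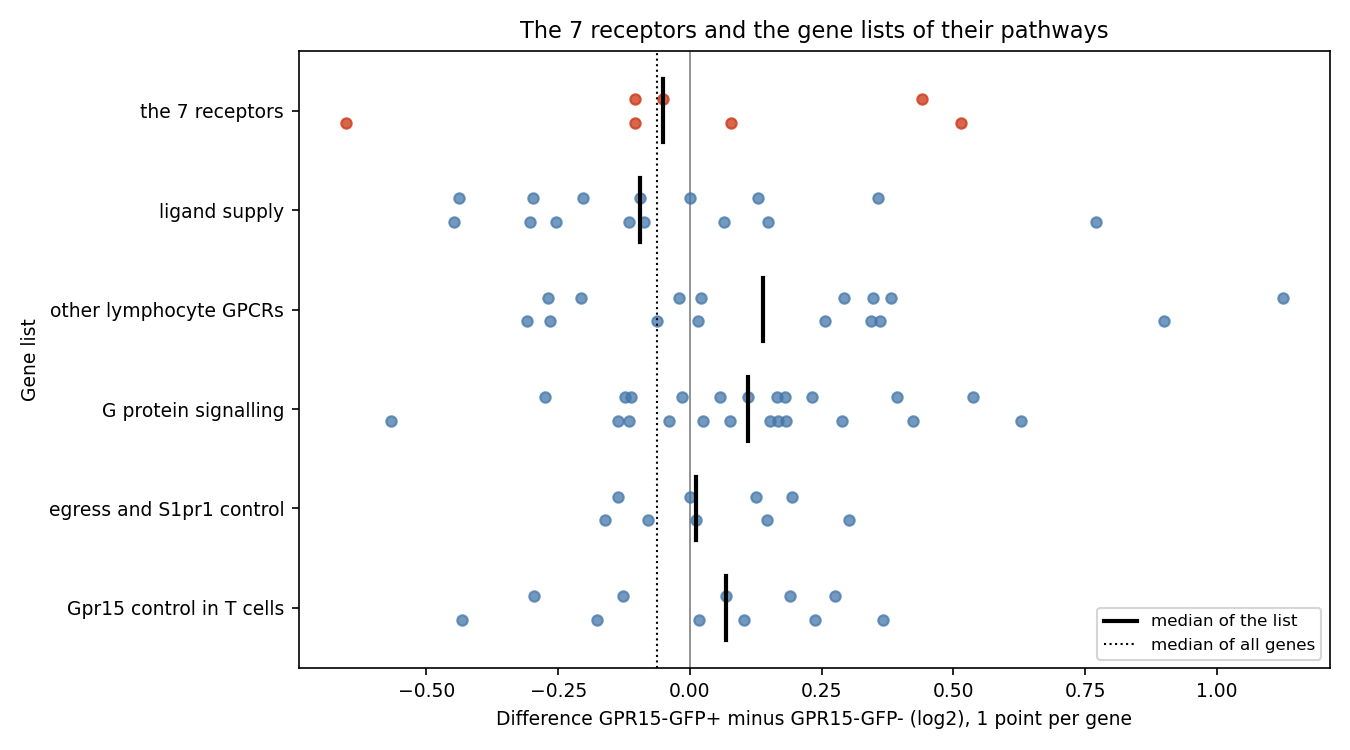
Difference between GPR15-GFP+ and GPR15-GFP- samples (log2, horizontal axis), 1 point per gene, for the 7 receptors (red) and 5 lists of pathway genes (blue); black bars are list medians and the dotted line is the median of all genes, -0.06. The receptors spread from -0.65 (Gpr15) to 0.52 (S1pr1), and Gpr174 at 1.13 is the highest point.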

How the data were processed

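The authors deposited 1 log2 value per probe set and array, made with RMA, per the submitters' processing notes. RMA is designed to subtract background, equalise the arrays' distributions and merge the probes of a set. The deposited arrays still differed, with medians from 6.49 to 6.64 and SDs from 1.63 to 1.87. The version of RMA and the array's name are not given in the sources used here. The table held 22142 rows, of which 19527 had 1 gene symbol in the platform annotation, 0 several and 2615 none; the row with the highest mean was kept for the 33 genes with several, which left 19494 genes. Gene identifiers of all 19494 were found in RefSeq's table for GRCm38.p6, used for neighbours and coordinates. Only the span of a gene was annotated, not the place of its probes.

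Samples were grouped by title. Genes were tested 2-sided in R 4.3.3 by limma 3.58.1 without a block, p-values were adjusted over all genes (Benjamini-Hochberg, threshold 0.05), and the script was tested on simulated data. Intervals and SEs are limma's moderated ones. An exact permutation test of 3 arrays against 3 cannot go below 0.1 (2-sided). Samples with equal numbers in their titles were treated as pairs, though the labels do not state that they are. Deviations from group means correlated at 0.567, 0.381 and 0.319 between samples numbered 1, 5 and 6. Numbers 5 and 6 also correlated across numbers, at 0.315 and 0.213. Deviations of 3 arrays from their mean sum to 0, so arrays numbered 1 that differ from the rest shape all of these values. The correlations therefore cannot show that the numbers pair samples. The labels do not say that samples were separate animals, so p-values measure the spread between these samples only, and the number of arrays limits precision. No arrays held identical values.

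The members and lists were chosen with earlier results of these data known. Beside the 7 receptors, the text names marker genes, up to 4 genes of each pathway list with the largest difference, the nearest measured neighbours and the genes with the most similar profiles. Further genes of the lists (the S1pr, Ptgdr, oxysterol enzyme, Gnai2, Cd69, Ahr and Tgfbr2 genes) and Kit were named for their role, after their values were seen. Ikzf2, Rgs2, Rgs3 and Rac2 were named with their values known, for fractions that did not overlap. The other named genes of the mast cell and eosinophil list, and Icos, Tnfrsf4 and Tnfrsf18, were also named with their values known.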

Additional observations from a re-analysis of the deposited data

How the results depend on the processing

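Alternatives were a filter on the 40% dimmest genes, centring of arrays, quantile normalization, removal of the intensity trend, array weights, other variance moderation, the replicate block, and leaving out each array or both numbered 1; those for Cldnd1 were added after seeing the data. Gpr15 and Cldnd1 lay below 0, and S1pr1 and Gpr18 above 0, in all 14. With array weights limma called 2174 genes instead of 0, among them Gpr15 (-0.59, limma adjusted p = 0.0461) and Cldnd1 (-0.97, adjusted p = 0.0144), and Gpr55 was -0.80 (adjusted p = 0.0747); over all alternatives Gpr15's adjusted p went from 0.0461 to 1.00 and Cldnd1's from 0.0144 to 1.00. Those weights were 6.56 for GPR15-GFP+ replicate 6 against 0.191 to 1.72 for the rest, from 6 arrays, and their estimation stopped before it converged. The replicate block changed no call: 0 genes passed, and Gpr15 kept -0.65 (limma adjusted p = 0.364). Genes at an unadjusted p under 0.05 were 1214, 2411 with the block, 4101 without both arrays numbered 1, and from 668 (without GPR15-GFP+ replicate 6) to 4351 (without GPR15-GFP+ replicate 1) with 1 array left out.

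Differences near 0 turned sign. S1pr4 was -0.035 with quantile normalization, -0.0048 with the intensity trend removed, -0.056 with array weights and -0.067 without both arrays numbered 1; Ptgdr2 was 0.019 with arrays centred, 0.020 with quantile normalization and 0.0495 with the trend removed. With 1 array left out, Gpr183 went from -0.29 to 0.14, Gpr55 from -0.40 to 0.33, S1pr4 from -0.10 to 0.17 and Ptgdr2 from -0.12 to 0.047. The cause was not tested.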
